A study of Mus musculus with 3 samples.

Results

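The gamma (PP) cells of 3 NOD-SCID islet libraries were studied, chosen by the share of their transcripts that came from Ppy, the gene of pancreatic polypeptide. Among barcodes with at least 500 genes and at most 15% of unique molecular identifiers (UMIs, 1 per captured transcript) from mitochondrial genes, a gamma cell had at least 1000 genes, at least 10% of its UMIs from Ppy, under 5% from the insulin genes Ins1 and Ins2, and under 5% from Sst, the somatostatin gene. Any amount of Gcg, the glucagon gene, was allowed. The rule found 224 gamma cells among 7490 kept barcodes, with 19 in mouse 1, 9 in mouse 2 and 196 in mouse 3.

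The mice were NOD-SCID females aged 10 to 11 weeks and not diabetic, with 1 library from the islets of 1 mouse each and with 1 group in all. The SCID mutation removes mature B and T lymphocytes, and these mice carried no treatment, transgene or reporter in the labels. Islets were freed from the pancreas by collagenase and a density gradient, dissociated with TrypLE and profiled with the 10x Genomics 3′ assay. With 1 group, the comparisons lie between endocrine classes within the same mice.

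Gamma cells are a rare endocrine cell type of the islet that secretes pancreatic polypeptide, a member of the neuropeptide Y family that acts mainly through the Y4 receptor and lowers pancreatic secretion and food intake. They are known to be most frequent in the part of the pancreas that develops from the ventral bud. Peptide YY, a close relative of pancreatic polypeptide that acts through other Y receptors, is made by several islet cell types and by enteroendocrine cells of the gut. Alpha cells secrete glucagon, beta cells insulin and delta cells somatostatin.

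Ppy and Pyy are neighbours on the minus strand of mouse chromosome 11 (GRCm38). Ppy lies at 102099930 to 102101319 and Pyy at 102106676 to 102107832, and no annotated GENCODE vM21 gene lies in the 5356 bases between them. Tspan8, which encodes a tetraspanin of the cell surface, lies on the plus strand of chromosome 10 at 115816832 to 115849893. The promoters of these marker genes are shown because their transcripts define or lead the gamma cells. Each runs from 250 bases before to 50 bases after the RefSeq start (GRCm38.p6), on the strand of the gene, and TATAA matches are in capitals. Pyy has 2 RefSeq starts, of which the first listed is shown.
Ppy promoter, chr11:102101270-102101569, minus strand: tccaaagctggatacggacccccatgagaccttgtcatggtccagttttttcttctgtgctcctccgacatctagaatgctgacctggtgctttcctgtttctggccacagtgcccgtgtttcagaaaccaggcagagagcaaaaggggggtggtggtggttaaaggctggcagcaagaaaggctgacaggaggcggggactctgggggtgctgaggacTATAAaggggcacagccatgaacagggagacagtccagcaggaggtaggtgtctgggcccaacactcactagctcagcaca
Pyy promoter, chr11:102107783-102108082, minus strand: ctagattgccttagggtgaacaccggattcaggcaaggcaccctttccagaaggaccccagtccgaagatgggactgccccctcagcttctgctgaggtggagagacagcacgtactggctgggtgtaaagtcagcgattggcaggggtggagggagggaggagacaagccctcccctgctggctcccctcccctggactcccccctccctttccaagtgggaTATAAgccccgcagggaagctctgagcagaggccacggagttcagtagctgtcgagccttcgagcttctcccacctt
Tspan8 promoter, chr10:115817034-115817333, plus strand: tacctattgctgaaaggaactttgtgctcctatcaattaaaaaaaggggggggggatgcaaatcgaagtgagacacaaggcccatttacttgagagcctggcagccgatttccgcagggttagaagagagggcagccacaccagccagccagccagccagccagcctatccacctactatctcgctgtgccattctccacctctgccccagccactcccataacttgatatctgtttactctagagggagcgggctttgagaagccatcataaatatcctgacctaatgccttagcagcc
The motif TATAA was searched on both strands. Ppy held 1 match, beginning 31 bases before the start, and Pyy held 1, beginning 27 bases before it, while the Tspan8 window held none. Of 32851 RefSeq promoters of this length, 24.9% held TATAA on either strand. CANNTG, which reads the same on both strands, had no match in the Ppy window, 1 in the Pyy window and none in the Tspan8 window, against 72.3% of all promoters with at least 1. A match is a description of the letters in these windows.

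The 3 libraries held 32389170 to 57849496 UMIs over 16162 deposited barcodes, of which 1145, 2705 and 3640 were kept in mice 1, 2 and 3. Gamma cells had medians of 49331, 29656 and 23501 UMIs and of 4691, 3990 and 3666.5 genes per cell. In mouse 3 they ranged from 2953 to 66729 UMIs and from 1010 to 6998 genes, with up to 13.7% mitochondrial UMIs. Of the 196 gamma cells of mouse 3, 157 had at least 2000 genes. The summed UMIs of gamma cells came to 921647, 277784 and 4619936 in mice 1, 2 and 3, so mouse 2 gave the least precise values. Within mouse 1, 1 pair of gamma barcodes differed in their counts by about the sampling noise (chi-square per degree of freedom 1.01, next pair 2.25), and 1 set of 3 in mouse 2 by little more (1.16 to 1.37, next pair 2.71), which leaves 18, 7 and 196 cells where each set is counted once. No gamma barcode recurred in another library, although mice 1 and 2 shared 148 barcodes. Gamma cells made up 1.66% of the kept barcodes of mouse 1 (95% exact binomial interval 1.0 to 2.58), 0.333% of mouse 2 (0.152 to 0.631) and 5.38% of mouse 3 (4.67 to 6.17). The mean was 2.46% ± 2.62 (SD, n = 3 mice), so the spread between mice was as large as the mean. The intervals cover counting error only, and which region of each pancreas gave the islets is not stated in the labels.

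Ppy supplied a mean of 35.7% ± 3.56 (SD, n = 3 mice) of all UMIs of the gamma cells, which is a description since Ppy chose them. Per mouse the share was 36.3%, 39.0% and 32.0%, against 0.195%, 0.133% and 0.388% in all other kept barcodes. Pyy, which the rule did not use, came next. It supplied 14.5%, 11.4% and 14.6% of gamma UMIs in mice 1, 2 and 3, and between 2.39% and 38.8% in single cells. The same share was 0.372%, 0.312% and 0.862% in all other kept barcodes, and a Pyy UMI was present in every one of the 224 gamma cells. Its share exceeded that of Ppy in 23 gamma cells, which all came from mouse 3. Tspan8 was detected in 222 of 224 gamma cells and supplied 0.0546% ± 0.0083 of their UMIs. Of the other islet hormones, Gcg made up 4.92% ± 2.23 of their UMIs. Insulin made up 0.742% ± 0.307 and Sst 0.102% ± 0.053, both held under 5% in each cell by the rule. Iapp, the amyloid polypeptide of beta and delta cells, made up 0.116% ± 0.050.

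Near the thresholds, the lowest Ppy share among gamma cells was 10.9%, and the highest among barcodes that missed only this condition was 9.71%. Another 29 kept barcodes had Ppy between 5% and 10% of UMIs, 74 between 1% and 5%, and 34 gamma cells lay between 10% and 20%. The insulin limit kept out 1 barcode that met every other condition, at 20.8%, the Sst limit 7, of which the nearest was at 6.10%, the gene minimum 27, of which the nearest had 925 genes, and the mitochondrial limit 5, of which the nearest was at 15.6%.

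Glucagon transcripts split the gamma cells unevenly. In mouse 1 the Gcg share ranged from 0.0190% to 13.8% with a median of 0.135%, in mouse 2 from 0.0459% to 38.7% with a median of 0.0679%, and in mouse 3 from 0.0913% to 42.9% with a median of 0.252%. All 224 cells had at least 1 Gcg UMI, but so did nearly all cells that should lack it: the median Gcg share was 0.374%, 0.245% and 0.649% in endothelial cells and 0.333%, 0.182% and 0.358% in macrophages of mice 1, 2 and 3 (median depths 4522 to 9218.5 and 9153 to 11413.5 UMIs, against 23501 to 49331 in gamma cells). The median share in gamma cells was below both in each mouse, but shares of cells this different in depth cannot be set against each other, and the part of free RNA was not tested. A smaller set of gamma cells held far more. Gcg reached 1% of UMIs in 6, 1 and 50 gamma cells of mice 1, 2 and 3 (57 in all) and 10% in 2, 1 and 37 (40 in all), and it exceeded Ppy in 16 cells, of which 15 were in mouse 3. In mouse 3 the Ppy and Gcg shares ran in opposite directions across the 196 cells (Spearman −0.61, given as a description, since both are shares of 1 total and come from 1 library), and Pyy and Gcg did so less steeply (−0.35), whereas Ppy and Pyy were nearly unrelated (−0.11).

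**Figure D1:**
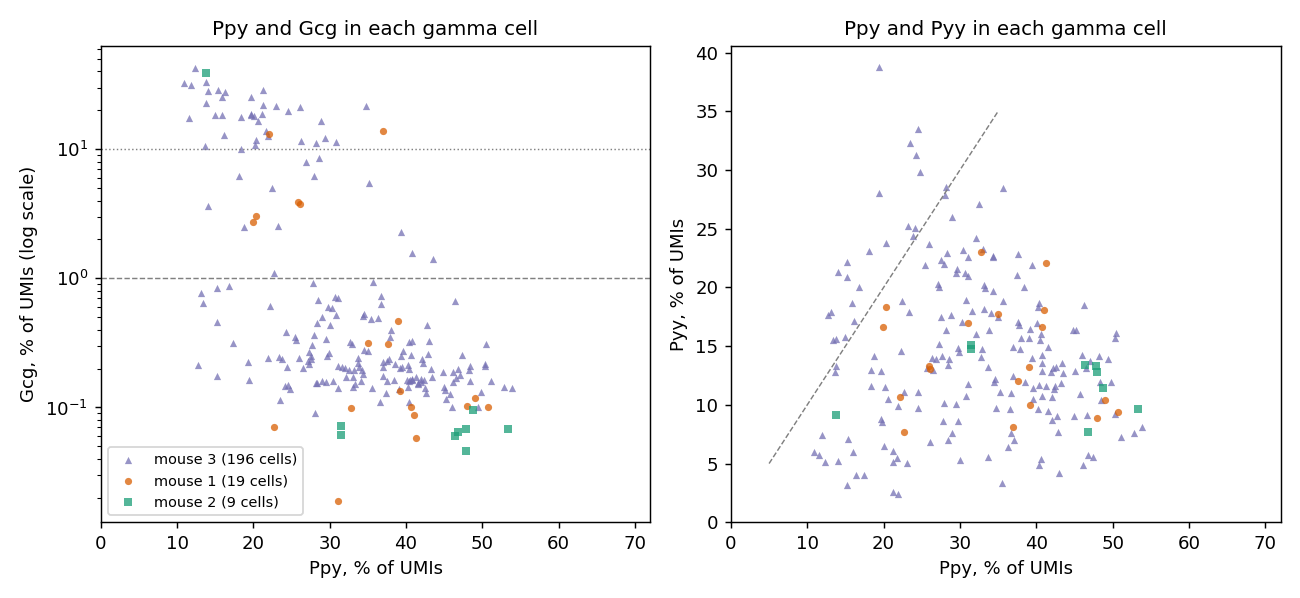
Share of UMIs from Ppy (horizontal axis, percent) against Gcg (left, percent, log scale, with lines at 1% and 10%) and Pyy (right, percent, with the line of equal shares dashed) in each of 224 gamma cells, by mouse. Most cells sit below 1% Gcg, and 57 cells sit above it, mainly at the lower Ppy shares.

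The gamma cells rich in glucagon transcripts also carried more transcripts of alpha cell genes. In mouse 3, 159 gamma cells with enough UMIs were thinned to 5000 UMIs outside the genes of the rule, and 37 shallower cells were left out. Before this step mouse 3 had 50 gamma cells with Gcg at 1% or more and 146 below it. Of the 159 thinned cells, 37 had Gcg at 1% or more and 122 below it. Irx1, a transcription factor of alpha cells, was detected in 18.9% of the former and 0.820% of the latter, and Irx2, a related factor, in 29.7% and 8.20%. Slc30a8, the zinc transporter of insulin and glucagon granules, was detected in 64.9% and 16.4%. Ttr, the transthyretin gene, had a median of 54 UMIs per 5000 in the former and 14.5 in the latter, and Gnas, the stimulatory G protein subunit, 26 and 12. Pyy went the other way, with medians of 880.0 and 1302.5 UMIs. Tspan8 was detected in 91.9% and 98.4%, with medians of 3 and 5 UMIs, and Folr1, a folate receptor of the cell surface, in 94.6% and 95.1%, also with medians of 3 and 5. These cells come from 1 mouse and 1 library, so the contrast has no replicate and no test. Of the gamma cells of mouse 3, 11 were among the barcodes with the highest doublet scores, and the part of doublets in the glucagon-rich set was not tested.

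**Figure D2:**
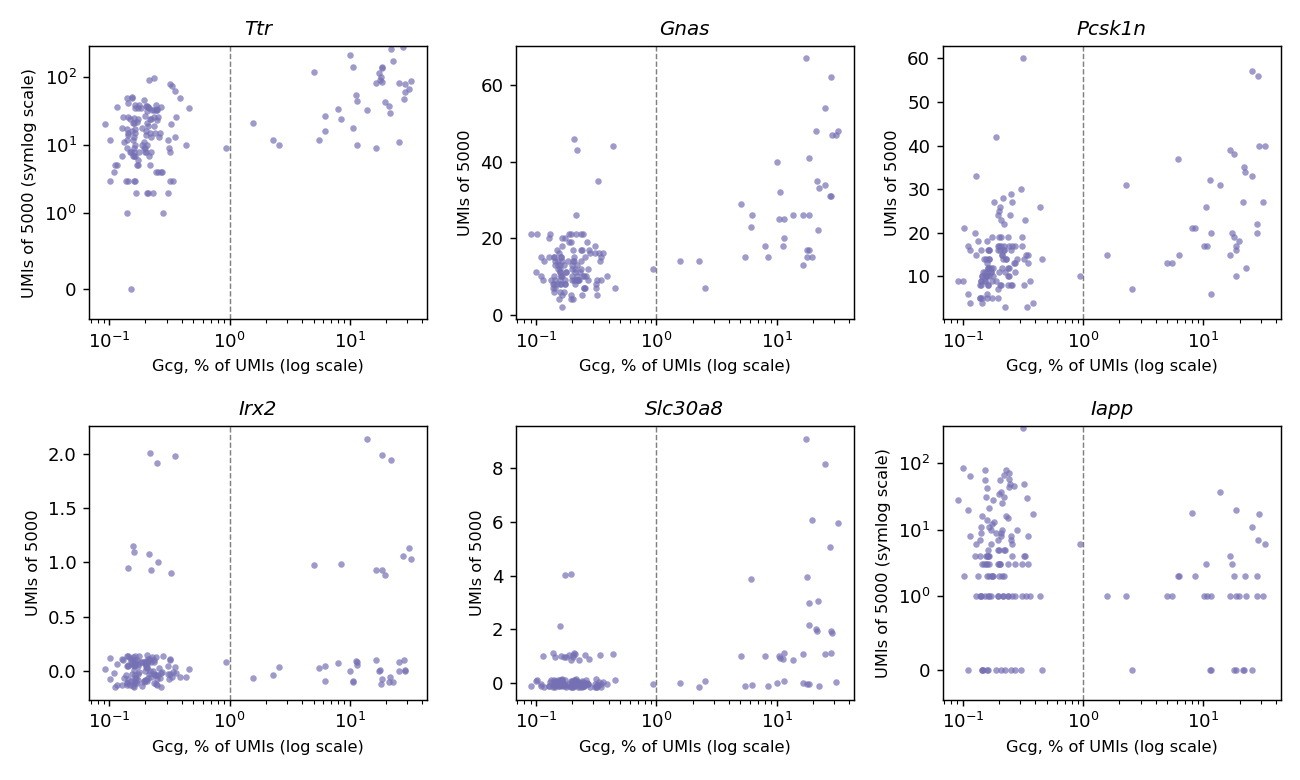
UMIs of 6 genes per 5000 UMIs outside the rule's genes (vertical axes, symlog for Ttr and Iapp) against the Gcg share (horizontal axes, percent of UMIs, log scale) in 159 gamma cells of mouse 3. Points for Irx2 and Slc30a8 are shifted slightly so that equal counts can be seen; the dashed line marks 1% Gcg, and cells to its right more often hold Irx2 and Slc30a8.

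Across the same 159 cells, the genes whose counts varied most relative to their mean were Pyy, with a variance to mean ratio of 181, the nuclear RNA Malat1 (90.9), Iapp (79.7), Ttr (56.1) and Chga, the chromogranin A gene (14.5). The median ratio of 1204 genes was 1.10. The imprinted RNA Meg3 followed at 11.5, then the granule protein gene Chgb (8.58), Gnas (7.93), the secreted phosphoprotein gene Spp1 (6.52) and Pcsk1n, which encodes an inhibitor of prohormone convertase 1 (6.14). Iapp was low in most gamma cells, with a median of 3 UMIs of 5000, and reached 344 in a single cell.

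For comparison, alpha cells were the barcodes with at least 20% Gcg, beta cells those with at least 30% Ins1 and Ins2 and delta cells those with at least 10% Sst. Each class was under 5% for the other hormones, Ppy included, and had at least 1000 genes. This gave 1499 alpha, 947 beta and 660 delta cells. UMIs were summed per mouse and class without the hormone and mitochondrial genes of the rule. Levels are CPM, UMIs per 1000000 of the remaining UMIs of the genes tested. Each total was first multiplied by its trimmed mean of M-values (TMM) factor. The factors were 0.81 to 0.88 in gamma sums and 0.94 to 1.17 in the others, which raises gamma levels relative to unscaled CPM. Bounds for genes without a UMI in a class use counts pooled over the 3 mice in both classes and totals without these factors. They do not pair the classes by mouse, and the mice carry unequal weight in each class. The 3 comparisons share the same gamma sums, so they are not independent of each other. Of 12042 genes tested with edgeR's quasi-likelihood test at a Benjamini-Hochberg adjusted p under 0.05, 2000 (16.6%) differed between gamma and alpha cells, with 991 higher (8.23%) and 1009 lower (8.38%) in gamma cells. Against beta cells 4116 genes (34.2%) differed, with 2027 higher (16.8%) and 2089 lower (17.3%). Against delta cells 3096 (25.7%) differed, with 1539 higher (12.8%) and 1557 lower (12.9%). Gamma cells of mouse 3 carried most of the depth, and without mouse 3 the counts were 758, 1997 and 1332. Each SE of a log2 difference below is the size of that difference divided by the square root of the test's F statistic. It was derived from the test rather than estimated on its own, so it is approximate, also for genes with few UMIs.

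Tspan8 was higher in gamma cells than in each of the other endocrine classes. Its level in gamma cells was 994, 1419.9 and 1059 CPM in mice 1, 2 and 3, against 19.9, 25 and 25 in alpha, 10.1, 12.7 and 12.9 in beta and 164, 209 and 191 in delta cells. Every gamma sum lay above every other sum, and delta cells came next. The log2 difference was 5.57 ± 0.11 (SE) against alpha (edgeR adjusted p = 1.08e-57), 6.57 ± 0.12 (SE) against beta and 2.58 ± 0.09 (SE) against delta cells. With each cell thinned to 2000 UMIs, 78.6% of gamma cells held a Tspan8 UMI, against 30.4% of delta, 16% of endothelial, 4.52% of alpha and 1.12% of macrophage cells (unthinned 99.1%, 58.2%, 29.8%, 14.4% and 3.35%). The share in delta and endothelial cells is above that in macrophages, which serve as the background.

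Pyy reached 309500.0, 258030.0 and 283480.0 CPM in gamma cells of mice 1, 2 and 3. It was 22854, 27543 and 22357 CPM in delta, 9403, 11164 and 15718 in alpha and 1054, 1513 and 985 in beta cells, so the order was gamma, delta, alpha, beta in every mouse. The log2 difference was 3.56 ± 0.26 (SE) against delta, 4.57 ± 0.27 (SE) against alpha and 7.92 ± 0.32 (SE) against beta cells (edgeR adjusted p = 7.82e-05, 4.84e-05 and 1.89e-06). Pyy made up 0.0348%, 0.0455% and 0.0372% of the UMIs of beta cells in mice 1, 2 and 3, beside 0.0261%, 0.0564% and 0.0857% in endothelial cells and 0.0315%, 0.0119% and 0.0503% in macrophages. The part of free RNA in the beta level was not tested.

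Folr1 was 1027, 909 and 1079.9 CPM in gamma cells, 209, 233 and 196 in delta, 58.3, 95.4 and 72.5 in alpha and 29.9, 32.7 and 32.9 in beta cells of mice 1, 2 and 3. The groups did not overlap, and the log2 differences were 2.31 ± 0.10 (SE), 3.80 ± 0.11 (SE) and 5.05 ± 0.12 (SE). Folr1 overlaps Anapc15 on the other strand. Calb1, which encodes the calcium buffer calbindin, was 564, 519 and 476 CPM in gamma cells, with means of 120.3 in alpha, 123 in delta and 13 in beta cells. The tetraspanin gene Cd9 was 311, 389 and 371 CPM in gamma cells, with means of 57.6 in alpha, 14 in delta and 7.15 in beta cells. In each of Folr1, Calb1 and Cd9 every gamma sum exceeded every other sum.

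Further genes passed in all 3 comparisons at lower levels, given here as the gamma mean followed by the log2 differences against alpha, beta and delta cells. Vsig1, which encodes an immunoglobulin-like surface protein, was at 21.8 ± 9.58 CPM in gamma cells (SD, n = 3) and at 0.223 and 0.465 CPM in alpha and beta cells, with differences of 6.56 and 5.78. No Vsig1 UMI was seen in delta cells, so the gamma level was at least 35.2-fold higher against a floor of 3 counts over the delta sums. Kdelr3, a receptor that returns proteins to the endoplasmic reticulum, was at 69.9 ± 30.9 CPM (1.97, 3.96 and 1.98), and Rcn3, a calcium-binding protein of the same compartment, at 247 ± 40.5 (1.37, 5.08 and 1.89). Gpx2, a glutathione peroxidase, was at 87.4 ± 6.64 CPM (1.83, 1.87 and 2.25), Oxr1, an oxidation resistance gene, was at 119 ± 10.7 (1.70, 1.38 and 2.06) and Ugt2b34, a glucuronosyltransferase of a multigene family, was at 182 ± 23.8 (1.61, 2.08 and 6.60). Also higher were Spon2 (121 ± 20.9 CPM), an extracellular matrix protein, Serpina7 (98.4 ± 29.2), the thyroxine-binding globulin, Lbp (85 ± 11.6), which binds lipopolysaccharide, and the growth factor Hbegf (65.5 ± 32.8), with differences against alpha cells of 1.66, 1.75, 2.27 and 2.43. The long noncoding RNA Snhg18 and the gene Pid1 were higher by 2.47 and 1.81 against alpha cells. Without mouse 3 the call for Rcn3 against alpha cells was lost (1.55) and the differences of Serpina7 against alpha cells and of Ugt2b34 against delta cells were 1.14 and 5.50. Vsig1 against beta cells was 6.75 without mouse 1 and 4.79 without mouse 2. With cells thinned to 2000 UMIs the call for Oxr1 against beta cells was lost. Kdelr3 overlaps Ddx17, Gpx2 overlaps Fntb, and Tspan8, Cd9, Rcn3 and Oxr1 each overlap an antisense or processed transcript in the annotation.

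**Figure D3:**
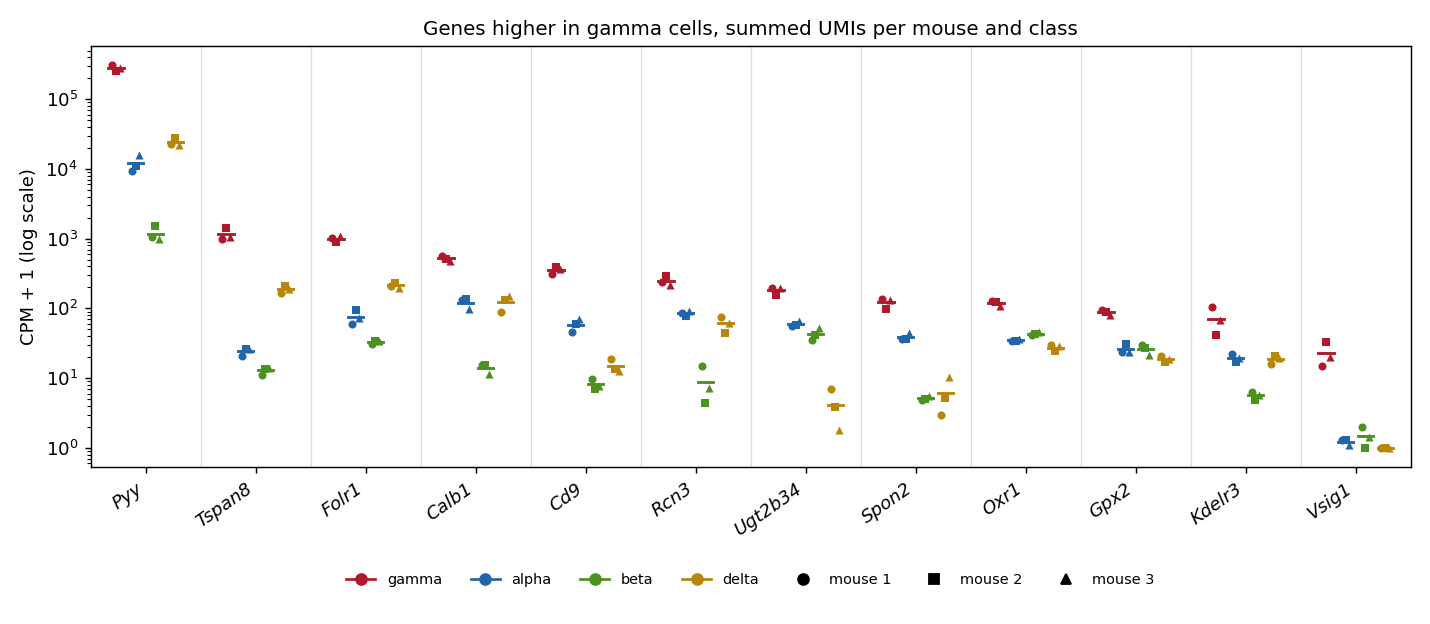
Level of 12 genes in CPM of UMIs outside the rule's genes, plus 1 (vertical axis, log scale), in gamma, alpha, beta and delta cells; each point is the sum over the cells of 1 mouse and lines are means of 3 mice. In all 3 mice the gamma points lie highest for Pyy, Tspan8, Folr1, Calb1 and Cd9, and delta cells come second for Tspan8 and Folr1.

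By the likeness of their levels to Ppy over the 12 sums of 4 classes in 3 mice, the genes nearest to Ppy were Tspan8 (Spearman 0.98), Cyp4v3 and Kdelr3 (0.97 each), Lbp (0.97) and Gpr180 (0.96). The 12 sums share 3 libraries, and the values are a description. Genes lower in gamma cells in all 3 comparisons included Rfx6, a transcription factor of endocrine development, at 11.6, 32.5 and 17.3 CPM in mice 1, 2 and 3 against means of 60.2 in alpha, 56.3 in beta and 120.1 in delta cells. Each gamma sum lay below every other sum, and the log2 differences were -1.71 ± 0.19 (SE), -1.61 ± 0.20 (SE) and -2.71 ± 0.18 (SE). Syndig1l, a transmembrane gene, was at 6.99 ± 1.11 CPM in gamma cells (-2.56, -4.92 and -4.43), and Scnn1b, a subunit of the epithelial sodium channel, at 7.17 ± 6.38 (-1.35, -2.90 and -2.41). Slc24a2, a sodium, potassium and calcium exchanger, was at 7.87 ± 7.14 (-1.63, -3.29 and -3.20). With gamma cells of Gcg at 10% or more left out the values of Syndig1l were -3.18, -5.54 and -5.04. Without mouse 3 the difference of Scnn1b against delta cells was -3.06, and with cells thinned to 2000 UMIs its call against alpha cells was lost.

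Summed over all gamma cells, Irx1 and Irx2 were lower in gamma than in alpha cells and higher than in beta and delta cells. Irx1 was 23.2, 16.2 and 21.1 CPM in gamma and 156, 226 and 177 in alpha cells, and Irx2 was 39.5, 48.7 and 47.2 and 155, 192 and 172. These factors are known from alpha cells. Both lay below every alpha sum and above every beta and delta sum, with log2 differences against alpha cells of -3.04 ± 0.18 (SE) and -1.89 ± 0.15 (SE). When gamma cells with Gcg at 10% or more were left out, the differences against alpha cells were larger, at -4.49 for Irx1 and -2.53 for Irx2. Irx1 and Irx2 were then higher by 3.0 and 3.69 against beta cells and by 1.78 and 2.83 against delta cells. With all gamma cells these values were 4.45, 4.34, 3.24 and 3.47. Leaving out Gcg at 10% or more still keeps gamma cells with Gcg from 1% to 10%. Among the thinned cells of mouse 3, Irx1 had means of 0.0082 UMIs in 122 cells with Gcg under 1% and 0.189 in the 37 others. For Irx2 these means were 0.107 and 0.378. Cells with Gcg under 1% were not tested on their own against beta and delta cells. Irx1 against beta cells was 6.02 without mouse 2 and lost its call with cells thinned to 2000 UMIs. Etv1, a factor of the ETS family, had means of 509.6 CPM in gamma and 567 in alpha cells (difference -0.07 ± 0.10 (SE), not past the test), against 29.2 in beta and 244 in delta cells.

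A low level of Nkx6-1 and Pdx1, factors of beta cells, was present too. Nkx6-1 was 69.7, 56.8 and 59.8 CPM in gamma cells, against means of 15.4 in alpha, 449.5 in beta and 8.02 in delta cells. Every gamma sum lay between the beta sums above and the alpha and delta sums below, with log2 differences of 2.06 ± 0.17 (SE), -2.85 ± 0.13 (SE) and 3.21 ± 0.22 (SE). Pdx1 was 27.9, 32.5 and 27.8 CPM in gamma cells, against means of 5.51, 238 and 132, above the alpha sums and below the beta and delta sums. Mafa, a factor of mature beta cells, was at 12.7 CPM in gamma and 858 in beta cells (-6.24), and Hhex, the delta cell factor, was 2.32, 0 and 4.63 CPM in gamma cells against a mean of 454 in delta cells (-6.58). Nkx2-2 was higher in gamma cells in each comparison (0.53, 0.50 and 1.77), as was the chromatin remodeller Smarca1 (0.88, 4.94 and 2.02). Neurod1 was lower against alpha and beta cells (-0.99 and -1.37) and did not pass against delta cells (-0.12). Without mouse 3 Hhex against delta cells was -7.93, and with cells thinned to 2000 UMIs the call of Pdx1 against alpha cells was lost. Pdx1 overlaps Plut and Neurod1 overlaps Cerkl in the annotation. Foxa2, at 61.6 CPM in gamma cells, passed in none of the comparisons. Of 36 islet transcription factors tested, 7 were higher, 10 lower and 19 did not pass against alpha cells, 15, 13 and 8 against beta cells, and 11, 16 and 9 against delta cells. Over all genes tested 8.23% were higher and 8.38% lower, 16.8% and 17.3%, and 12.8% and 12.9% in these comparisons.

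**Figure D4:**
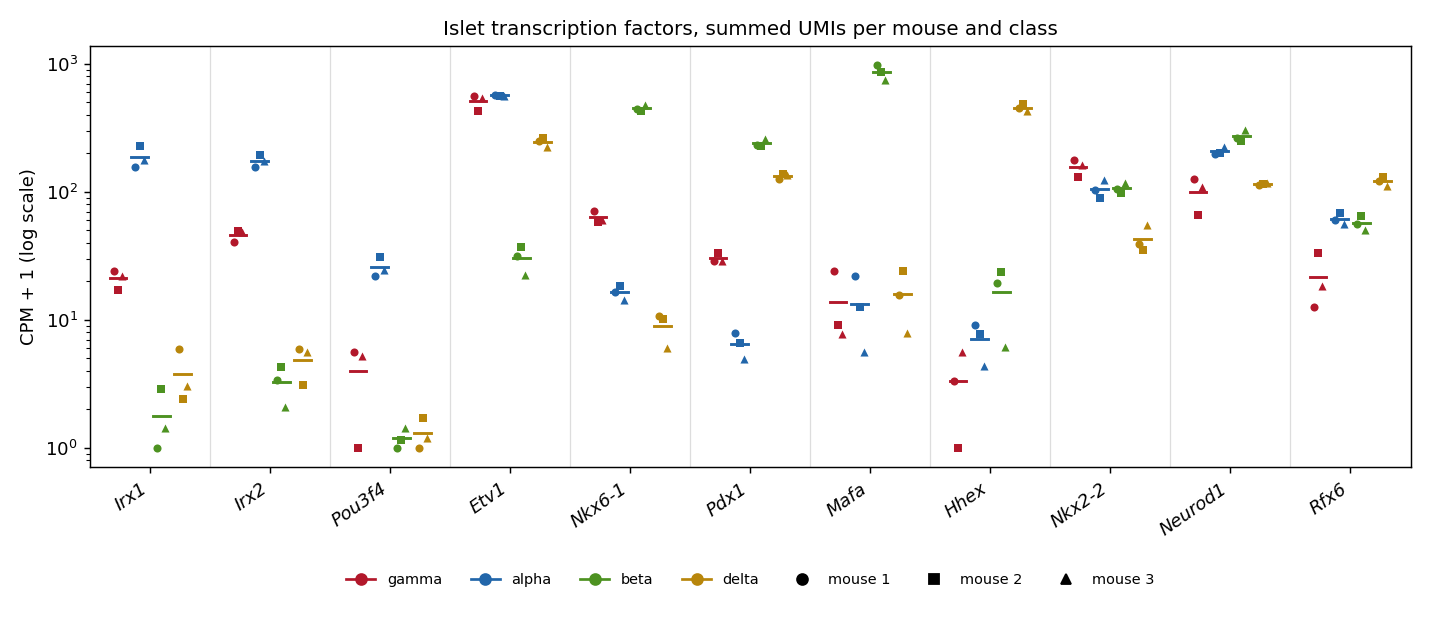
Level of 11 islet transcription factors in CPM of UMIs outside the rule's genes, plus 1 (vertical axis, log scale), in gamma, alpha, beta and delta cells; each point is the sum over the cells of 1 mouse and lines are means of 3 mice. Gamma points lie above alpha points for Nkx6-1 and Pdx1 and below them for Irx1, Irx2 and Rfx6.

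Against alpha cells, the gamma cells were lower for most alpha cell genes. Ttr was 5159, 5534 and 8596 CPM in gamma and 38165, 48616 and 42330.0 in alpha cells of mice 1, 2 and 3, and 1881, 1745 and 2217 in beta cells. Gamma sums lay below all alpha sums and above all beta sums, with log2 differences of -2.79 ± 0.26 (SE) and 1.70 ± 0.25 (SE). Slc38a5, an amino acid transporter linked to alpha cell growth, was at 54.6 against 465 CPM (log2 difference -2.49), and the kinase gene Wnk3 was lower too (-1.79). Further lower genes were Edil3, an integrin ligand (1.76 and 65.9 CPM, -4.50 ± 0.32 (SE)), the neurosecretory protein gene Vgf (8.85 and 141, -3.14 ± 0.22 (SE)), Olfm1 (10.5 and 86.2, -3.04 ± 0.20 (SE)) and Dpp10, a subunit of potassium channels (8.23 and 66.6, -2.87 ± 0.24 (SE)). Without mouse 3 the values for Edil3 and Vgf were -5.13 and -5.22, with gamma cells of Gcg at 10% or more left out those for Edil3, Vgf and Dpp10 were -5.51, -4.57 and -3.76, and without mouse 1 the call for Ttr against beta cells was lost (1.82). Gc, the vitamin D-binding protein and an alpha cell marker, was higher in gamma than in alpha cells (741 and 336 CPM, 1.18 ± 0.15 (SE)). Of 18 alpha cell genes tested, 12 were lower in gamma cells, 4 higher (Gc and Smarca1 among them) and 2 did not pass, with a median log2 difference of −1.33 against −0.03 for all genes. The same genes were mostly higher against the other classes, with 14 higher and 2 lower against beta cells (median 2.54) and 15 higher and 2 lower against delta cells (median 2.60). These sums include the gamma cells rich in Gcg, which in mouse 3 held more Ttr, Irx1 and Irx2. Among all genes tested, 8.23% were higher and 8.38% lower against alpha cells, and 16.8% and 17.3% against beta cells. Against delta cells 12.8% of all genes were higher and 12.9% lower. Higher in gamma cells than in alpha cells by the size of the change were also Fxyd3, a regulator of the sodium pump that overlaps Lgi4 on the other strand (4.63), Nrsn1, a neuronal vesicle gene (3.12), S100a10, an annexin partner (2.69), and Rflna (2.43).

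Against beta cells, the gamma cells were lower for 18 of 19 beta cell genes tested, among them genes of glucose entry and of the mature beta cell. Of all genes tested, 17.3% were lower in this comparison. Slc2a2, the glucose transporter GLUT2, was 9.29, 0 and 3.37 CPM in gamma and 1035, 1032 and 1078 in beta cells of mice 1, 2 and 3, a log2 difference of -7.88 ± 0.51 (SE) (edgeR adjusted p = 2.44e-05). Npas4 did not pass, and the median log2 difference of the list was −5.04 against −0.02 for all genes. Among them were G6pc2, the islet glucose-6-phosphatase (14.7 and 994 CPM, -7.10 ± 0.58 (SE)), the peptide hormone gene Ucn3 (2.46 and 527, -6.98 ± 0.53 (SE)), and the cation channel gene Trpm5 (2.53 and 336, -6.90 ± 0.35 (SE)). Iapp was 3143, 1314 and 2793 CPM in gamma cells, against means of 83184 in beta, 36461 in delta and 1414 in alpha cells. It was lower than in beta and delta cells (-5.04 ± 0.38 (SE) and -3.85 ± 0.36 (SE)) and did not pass against alpha cells (0.89 ± 0.34 (SE)). Without mouse 3 the differences of Slc2a2, G6pc2, Ucn3, Trpm5 and, of the higher genes that follow, Galnt13 were -7.17, -5.85, -8.01, -6.24 and 8.40. Iapp overlaps Slco1a5 in the annotation. Higher in gamma cells were Galnt13, a glycosyltransferase (7.70 ± 0.38 (SE)), Pyy and the metalloproteinase gene Pappa2 (501 and 15.1 CPM, 5.04 ± 0.12 (SE)). Galnt13 and Pappa2 had like means in gamma and alpha cells, with differences of 0.16 ± 0.17 (SE) and -0.00 ± 0.09 (SE) that did not pass. Hk1, the hexokinase of most tissues, was at 19.7 CPM in gamma, 18 in alpha and 0.571 in beta cells (5.05 ± 0.48 (SE)).

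Against delta cells, 12 of 14 delta cell genes tested were lower in gamma cells and 2 (Bcas3 and Casr) did not pass, with a median of −5.15, or −4.78 where Ghsr, which had no UMI in gamma cells, is set at its bound. Ly6h, a small surface protein gene, was at 5.87 and 645 CPM in gamma and delta cells (-6.47 ± 0.78 (SE)), the arginase gene Arg1 at 2.18 and 428 (-6.58 ± 0.68 (SE)), and the growth cone gene Gap43 at 5.97 and 393 (-5.17 ± 0.64 (SE)). Ghsr, the ghrelin receptor, was at least 21.7-fold lower. Fam159b, which shares its locus with Shisal2b in the annotation, was at 19 and 1286 CPM (-6.08 ± 0.49 (SE)). Higher in gamma than in delta cells were Lpl, lipoprotein lipase (343 and 10.8 CPM, 5.34 ± 0.15 (SE)), Skap1, an adaptor gene (63.8 and 0.640, 5.96 ± 0.32 (SE)), and Ttr (4.93 ± 0.30 (SE)). Without mouse 3 the values of Ly6h, Arg1 and Skap1 were -7.46, -8.00 and 7.40. Against alpha cells 1 of the 14 delta cell genes was higher and none lower, and against beta cells 4 were higher and 1 lower. Of all genes tested, 8.23% were higher and 8.38% lower against alpha cells, and 16.8% and 17.3% against beta cells. Against delta cells these shares were 12.8% and 12.9%. Lpl was higher still in alpha cells, at 840.3 CPM.

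Of 31 genes of hormone processing and granules, 6 were higher, 7 lower and 18 did not pass against alpha cells, 11, 8 and 12 against beta cells, and 15, 6 and 10 against delta cells. Over all genes tested 8.23% were higher and 8.38% lower, 16.8% and 17.3%, and 12.8% and 12.9% in these comparisons. The convertase gene Pcsk2 had means of 4515 CPM in gamma and 5668 in alpha cells, a log2 difference of -0.34 ± 0.08 (SE), against 2928 and 2872 in beta and delta cells, while the other convertase, Pcsk1, was at 16.8 CPM in gamma and 548 in beta cells (-4.52 ± 0.35 (SE)). The secretogranin gene Scg2 was 3912, 4138 and 3972 CPM in gamma and 1426, 1597 and 1523 in alpha cells of mice 1, 2 and 3. These sums did not overlap, and the log2 difference was 1.40 ± 0.07 (SE) (edgeR adjusted p = 9.17e-29). Chgb was higher as well (1.08 ± 0.17 (SE)), and Chga was lower (-1.24), a call that was lost without mouse 3 (-1.28). Slc30a8 was 239, 64.9 and 159.6 CPM in gamma cells, against means of 864 in alpha, 966 in beta and 22.3 in delta cells, with differences of -2.29 ± 0.25 (SE), -2.46 ± 0.25 (SE) and 3.14 ± 0.35 (SE). With gamma cells of Gcg at 10% or more left out these were -3.39, -3.56 and 2.02. Gnas had means of 3443 and 7326 CPM in gamma and alpha cells (-1.08 ± 0.07 (SE)) and Pcsk1n of 3633 and 6595 (-0.86 ± 0.07 (SE)). Gnas overlaps Nespas in the annotation.

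Among receptors of islet signals, 5 of 30 genes tested were higher, 6 lower and 19 did not pass against alpha cells, 9, 14 and 7 against beta cells, and 9, 10 and 11 against delta cells. Over all genes tested 8.23% were higher and 8.38% lower, 16.8% and 17.3%, and 12.8% and 12.9% in these comparisons. Chrm3, the M3 muscarinic receptor through which acetylcholine acts, was 27.9, 24.3 and 52.2 CPM in gamma cells of mice 1, 2 and 3, against means of 1.72 in alpha, 2.69 in delta and 40.7 in beta cells. It was higher than in alpha and delta cells (4.38 ± 0.27 (SE) and 4.20 ± 0.32 (SE)) and did not pass against beta cells (-0.10 ± 0.20 (SE)). Mc4r, the melanocortin 4 receptor, was at 11 ± 4.76 CPM in gamma cells and higher in each comparison (1.42, 6.16 and 4.04). Oxtr, the oxytocin receptor, was at 19 ± 9.04 CPM in gamma and 131 in alpha cells (-2.38 ± 0.18 (SE)). The lipid receptor gene Gpr119 was at 27.6 ± 14.1 CPM, between 78.2 in alpha and 3.46 in beta cells. Avpr1b, a vasopressin receptor, was at 15.8 ± 7.56 CPM in gamma and 37 in alpha cells and had no UMI in beta cells, so it was at least 59.1-fold higher than in beta cells. Without mouse 3 Chrm3 against delta cells was 3.13, Oxtr against alpha cells -3.28 (-3.22 with Gcg under 10%) and Gpr119 against beta cells 2.75. Gcgr, the glucagon receptor, had no UMI in gamma cells and was at least 31.3-fold lower than in beta cells, with the floor of 3 counts taken over the gamma sums.

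Of 29 genes of glucose sensing and ion channels, 6 were higher, 4 lower and 19 did not pass against alpha cells, 9, 9 and 11 against beta cells, and 7, 10 and 12 against delta cells. Over all genes tested 8.23% were higher and 8.38% lower, 16.8% and 17.3%, and 12.8% and 12.9% in these comparisons. The potassium channel gene Kcnk16 was 269, 252 and 265 CPM in gamma cells and higher in each comparison (0.80 ± 0.10 (SE), 1.20 ± 0.10 (SE) and 0.82 ± 0.11 (SE)). The calcium channel gene Cacna1c was lower in each (-1.05 ± 0.24 (SE), -1.55 ± 0.23 (SE) and -0.84 ± 0.26 (SE)). Kcnj11, a subunit of the ATP-sensitive potassium channel, was at 58.7 CPM in gamma cells and passed in none of the comparisons, with differences from -0.29 to 0.36; its partner Abcc8 passed only against delta cells (-0.58 ± 0.10 (SE)).

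Tetraspanins and other surface proteins were the list with the largest share of higher genes against alpha cells among those given here: 18 of 24 tested were higher, none lower and 6 did not pass, with a median log2 difference of 0.65, while 8.23% of all genes tested were higher. Against beta cells 16 were higher and 4 lower (16.8% and 17.3% of all genes tested). Against delta cells 11 were higher and 9 lower (12.8% and 12.9%). The list was drawn up with Tspan8 and Folr1 already known as gamma genes. Besides them, Tspan13 (344 CPM), Tspan15 (134), Tspan3 (320.5), Cd151 (55.9) and Cd81 (606) were higher in all 3 comparisons, with differences against alpha cells of 1.35 ± 0.10 (SE), 1.6 ± 0.12 (SE), 0.52 ± 0.10 (SE), 1.06 ± 0.16 (SE) and 0.33 ± 0.09 (SE). With cells thinned to 2000 UMIs the calls of Tspan13 against beta and Tspan15 against delta cells were lost. Tspan12 was higher than in alpha and beta cells (1.83 and 3.52) and lower than in delta cells (-1.35), and Cd24a, a delta cell surface protein, was at 7.45 CPM in gamma and 561 in delta cells (-5.29 ± 0.70 (SE)).

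**Figure D5:**
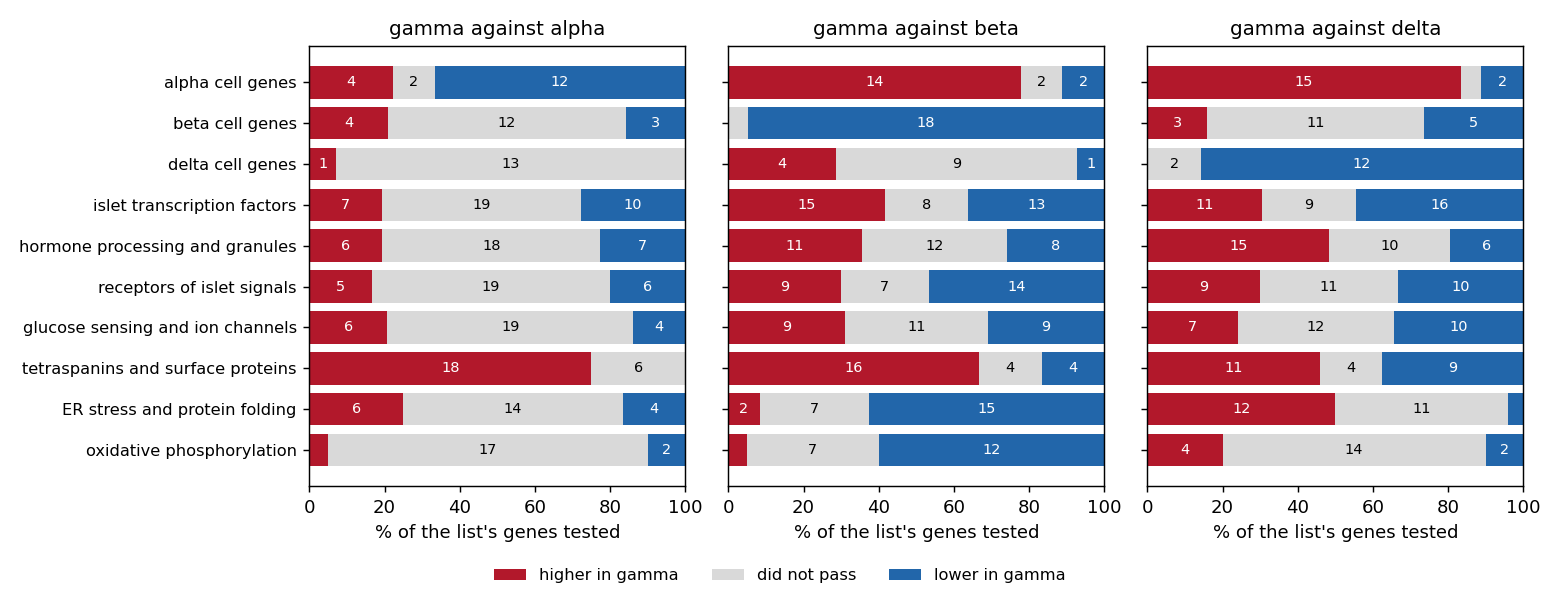
Share of the tested genes of 10 lists (horizontal axis, percent, bars from 0 to 100) that were higher in gamma cells, did not pass or were lower, against alpha, beta and delta cells. The number of genes is printed in all but the narrowest bars. Alpha cell genes are mostly lower against alpha cells and mostly higher against the other classes. Of tetraspanins and surface proteins, 18 of 24 are higher against alpha cells, beside 8.23% of all genes tested.

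For the lists that follow, 8.23% of all genes tested were higher and 8.38% lower against alpha cells, 16.8% and 17.3% against beta cells, and 12.8% and 12.9% against delta cells. Of 24 genes of protein folding and endoplasmic reticulum stress, 6 were higher and 4 lower against alpha cells, 2 higher and 15 lower against beta cells (median −0.58), and 12 higher, 1 lower and 11 not passing against delta cells (median 0.40). Of 20 genes of oxidative phosphorylation, 12 were lower and 1 higher against beta cells, while 1 was higher and 2 lower against alpha cells. Of 14 genes of glycolysis, 1 was higher and none lower against alpha cells, 1 higher and 4 lower against beta cells, and 3 higher and 5 lower against delta cells. Among 18 genes of the response to dissociation, 1 was higher and 5 lower against alpha cells, 10 higher and 2 lower against beta cells, and 6 higher and 4 lower against delta cells. Of 17 genes of interferon and antigen presentation, 5 were lower and 1 higher against alpha cells and 8 lower and 1 higher against delta cells. Their part in the other differences was not tested. Against beta cells 3 of the 17 were higher and 2 lower. Of 14 genes of endocrine progenitors none was higher and 5 were lower against alpha cells, 3 were higher and 5 lower against beta cells, and 3 were higher and 6 lower against delta cells. Of 19 cell cycle genes 1 was lower in each comparison and 1 was higher against beta cells, and most had few UMIs in gamma cells. Of 12 other peptide hormone genes 1 was higher and 4 lower against alpha cells, 1 higher and 6 lower against beta cells, and 2 higher and 6 lower against delta cells. Ghrl, the ghrelin gene, had no UMI in gamma cells and was at least 19.9-fold lower than in beta cells. Npy, the third gene of the neuropeptide Y family, was lower than in beta and delta cells (-7.31 and -4.42). Its difference against beta cells was -6.45 without mouse 3, and its call against delta cells was lost with Gcg under 10% (-4.34).

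Markers of endothelial cells, macrophages, fibroblasts and pericytes were low, and those of acinar and duct cells were higher. Endothelial markers made up 0.000720% to 0.00240% of gamma UMIs per mouse, macrophage markers 0.00293% to 0.00619%, and fibroblast and pericyte markers 0.000720% to 0.00184%. Markers of acinar cells, the enzyme-secreting cells around the islet, made up 0.159%, 0.959% and 0.0844% in mice 1, 2 and 3, and none of 13 passed in any comparison. Markers of duct cells made up 0.0713% to 0.0974%, and 3 of 7 tested were higher than in alpha cells, namely the keratin genes Krt7, Krt8 and Krt18. The call for Krt8 was lost without mouse 3 (0.34) and that for Krt7 with thinned cells, and the part of duct cell RNA in these 3 genes was not tested. Against beta cells 3 duct markers were higher, and against delta cells 4. None of 6 endothelial markers passed against alpha cells, 1 was higher against beta cells, and 1 was higher and 1 lower against delta cells. Of 3 macrophage markers C1qb was higher against alpha and delta cells, and C1qa was higher against beta and lower against delta cells. Of 2 fibroblast and pericyte markers 1 was higher against beta and delta cells, and of 4 Schwann cell markers 1 was higher against alpha and 2 against beta cells. For all genes tested, 8.23% were higher and 8.38% lower against alpha cells, and 16.8% and 17.3% against beta cells. Against delta cells the shares were 12.8% and 12.9%.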

How the data were processed

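Islet cells of 3 NOD-SCID mice, 1 library per mouse, were measured with the 10x 3′ v2 assay named in the labels. The deposited matrices hold whole-number UMI counts per gene and barcode. Per the submitters' processing notes, Cell Ranger 2.2 and mm10 were used, while the file headers name software version 3.1.0. How barcodes were selected is not given in the sources used here.

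The gamma rule and the gene lists were chosen with earlier results of these data known. No barcode was removed as a doublet, and the alpha, beta and delta classes came from hormone shares, without clustering. Endothelial cells and macrophages were taken from kept barcodes outside the endocrine classes with at least 1000 genes. They had at least 3 detected markers of their own type and none of the other type. Alpha cells had to be low in Ppy, whereas gamma cells could hold any Gcg. Counts were summed per mouse and class without the genes of the rule and fitted together with edgeR 4.0.16 in R 4.3.3 (quasi-likelihood, robust, trimmed mean of M-values scaling, filterByExpr, mouse as a block), with Benjamini-Hochberg adjustment over 12042 genes. The mouse is the replicate and pairs the sums: deviations of sums of the same mouse correlated at 0.203 to 0.801, and of other mice at −0.703 to 0.154. Deviations from a class mean cancel out over the 3 mice, so positive values within a mouse force lower values between mice. The ranges are therefore not independent of each other. CPM are scaled by the same trimmed mean of M-values factors. On simulated counts of 11445 genes, 98 were changed by 1 and 94 by 2 on the log2 scale in each comparison. Each class was drawn from the alpha profile of its mouse, and only these genes differed in gamma cells. The many class differences of the real data and their unequal scaling factors were not simulated, so the rates that follow hold for that setting only. Of the 98, 71.4%, 65.3% and 63.3% were recovered against alpha, beta and delta cells. False calls made up 11 of 164, 15 of 161 and 11 of 154 calls, each a larger share than the adjusted p threshold. Named genes are those past the threshold by the size of change in each comparison, those higher or lower in all 3, and members of the lists. Positions come from GENCODE vM21 and promoters from RefSeq. The alternatives tried are given in the closing section, and matching barcodes were counted once as an alternative chosen after seeing the data. Python 3.11.15, scanpy 1.11.5 and DESeq2 1.42.0 were also used. A few genes are not reported here.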

Additional observations from a re-analysis of the deposited data

How the results depend on the processing

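Leaving out 1 mouse at a time gave 758 to 1776 genes against alpha cells, 1997 to 3724 against beta cells and 1332 to 2883 against delta cells, with the lowest without mouse 3, which holds 196 of the 224 gamma cells. With each cell thinned to 2000 UMIs the counts were 378, 930 and 685 of 6397 genes tested (5.91%, 14.5% and 10.7%). With each sum thinned to the gamma sum of its mouse they were 1179, 2735 and 2007 of 7867 (15%, 34.8% and 25.5%), shares close to those of 16.6%, 34.2% and 25.7% over 12042 genes. Without the mouse as a block they were 1089, 3179 and 2166, and with DESeq2 1407, 3341 and 2361. With matching barcodes counted once, chosen after seeing the data, they were 1991, 4077 and 3076. Without the filter on low counts the median of all genes moved to −0.15 against alpha and beta cells. Over the alternative rules for choosing cells, the mean share of gamma cells ran from 2.05% (Gcg under 10%) to 2.79% (Ppy at least 5%), beside 2.46% in the main setting. In mouse 1 it was 2.24% with at most 10% mitochondrial UMIs, beside 1.66%. The SD between mice, 2.62, exceeds the mean, so it cannot serve to judge a fall in the share. Of all calls that could still be tested, 29, 57 and 40 changed sign against alpha, beta and delta cells without mouse 3. With cells thinned to 2000 UMIs 39, 104 and 76 did. Among the 179 named genes, 8 values that had passed the test changed sign, beside others that had not passed. Without mouse 3 these were Nnat against alpha cells (−0.34, within a range of −0.34 to 1.61 over the mice left out) and Sstr2 against beta cells (−2.40, within −2.40 to 6.49). With Gcg under 10% they were Sstr2 (−0.22) and Plvap (−0.31) against delta cells. With thinned cells they were Atf4 against alpha cells (0.024) and Dusp1 against beta cells (−0.014), and with 10% limits for alpha and beta cells Fabp7 (−0.29) and Cryab (−0.093) against beta cells. The cause was not tested.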
